A study of Mus musculus with 8 samples.

Results

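The nuclear receptors and the coregulators that act with them were followed in the livers of mice without ovaries (ovariectomized, OVX) whose high fat diet did or did not hold white button mushroom (WBM). The set is a list of 41 gene symbols, taken by name with no measured value in the rule, although earlier results of these data were known when it was drawn up, and it includes the aryl hydrocarbon receptor Ahr and its partner Arnt, which belong to another family of transcription factors. Estrogen receptors and the Rev-erb genes were not on the list. Of the 41 genes, 40 had a row of their own on the array, each by 1 probe set, among 19938 genes tested, and Ncor1 was not analysed here because no row of the annotation used names it alone. The mice were female C57B1/6J, ovariectomized at 7 weeks of age and placed 1 week later on their diets for 3 months. Of these, 4 received the high fat diet with WBM (HFD+WBM, n = 4) and 4 the high fat diet alone (HFD, n = 4), so that both groups had been ovariectomized and both ate the high fat diet. The paper lists less corn starch in the diet with WBM, and the powder itself held protein and fiber. HFD mice were given the food weight of the WBM group 1 day later, and the mice were fasted before sacrifice. Liver RNA of each mouse was hybridized to an Affymetrix Mouse Gene 1.0 ST array of its own, and mice with ovaries or on other diets were not analysed here. All values are log2 signals, and each difference is the mean of the HFD+WBM mice minus that of the HFD mice.

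Nuclear receptors are transcription factors that bind a small fat-soluble ligand, such as an oxysterol, a fatty acid, a bile acid, a retinoid or a steroid, and switch their target genes when the ligand is bound. Many of them sit on DNA as a pair with a retinoid X receptor, and all of them work through coactivators and corepressors that open or close chromatin. In the liver they set the rates of fat synthesis, fatty acid oxidation, bile acid production and drug clearance, and their activity is set largely by ligand, which the level of their own messenger RNA does not show.

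The arrays were of similar signal, with medians over 28944 rows of 7.11 to 7.19 in HFD+WBM livers and 7.04 to 7.22 in HFD livers, and correlations of 0.920 to 0.973 between any 2 of them. HFD mouse 3 stood farthest from the others (SD 0.68 over genes, against 0.38 to 0.50). Without it, 4 members had p under 0.05 before adjustment by limma (10%), Rxrb, Rxrg, Vdr and Nr0b2, against 11.7% of all genes.

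Few of the receptor and coregulator messenger RNAs differed between the diets. At p under 0.05 before adjustment by limma, 4 of the 40 measured members differed, against 11.7% of all genes tested, so the share of members (10%) was near the background. Rarb and Rxrg were lower in HFD+WBM livers (2 members, against 6.9% of all genes), and Vdr and Nr5a2 were higher (2 members, against 4.85%). At the thresholds of the study, which add a change of at least 2-fold, 0 members passed, against 0.762% of all genes. At an adjusted p under 0.05 by limma, 0 members and 0% of all genes passed, and the lowest adjusted p of a member was 0.37. The 4 HFD+WBM values and the 4 HFD values did not overlap for 3 members, Vdr, Nr5a2 and Ncoa2, against 8.23% of all genes. All 3 were higher in HFD+WBM livers, where the background was 3.21%, and 0 were lower, where it was 5.02%.

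The intervals show what size of change these arrays could have missed, and a range in brackets after a difference is its 95% interval by limma. That interval of the difference reached 0.41 to either side of the estimate at the median over members (0.30 to 1.85), against 0.47 over all genes. For 34 of the 40 members the whole interval lay within a 2-fold change in either direction, and for 18 within a 1.5-fold change. The median difference was 0.08 over members and 0.01 over all genes, and the median size of a difference, whatever its sign, was 0.21 over both. Of the members, 23 had an estimate above 0, against 50.7% of all genes, and 17 had one below 0. In whole liver, fewer cells of a type and less RNA per cell cannot be told apart, which holds for each value that follows.

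**Figure D1:**
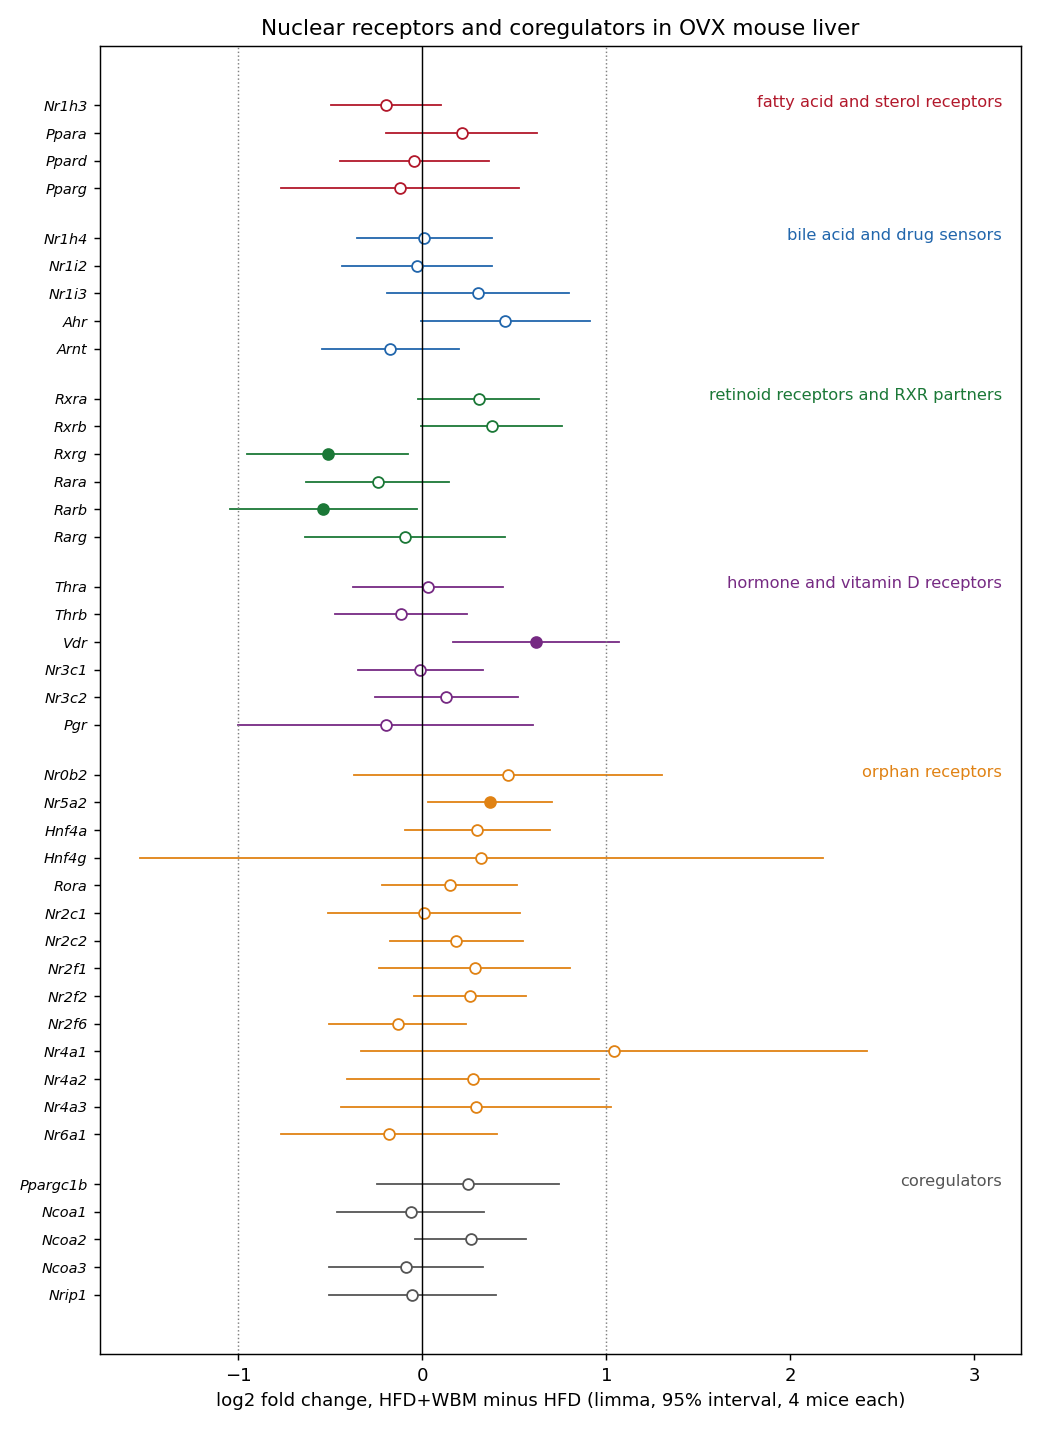
Difference in log2 signal (HFD+WBM minus HFD, horizontal axis) of each of the 40 measured members, grouped by role, with its 95% interval as a bar. Filled points are the 4 members with p under 0.05 before adjustment by limma, the dotted lines mark a 2-fold change, and Nr4a1 (1.04) is the member whose estimate lies past one of them.

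The receptors for fatty acids and sterols, 4 members, held 0 that passed the test, and their median difference was -0.08. Nr1h3, the oxysterol receptor LXR alpha that drives fatty acid synthesis and cholesterol efflux, had a signal of 9.93, 9.96, 9.89 and 10.11 in HFD+WBM mice 1 to 4, against 10.23, 10.13, 10.26 and 10.06 in HFD mice 1 to 4. HFD+WBM mice 1 to 3 lay below all HFD mice and mouse 4 lay among them. The difference was -0.20 (-0.50 to 0.10; adjusted p = 0.56 by limma, exact permutation p = 0.0571), the narrowest interval of any member. Ppara, the receptor that turns on fatty acid oxidation, had 11.23, 11.61, 11.74 and 11.80 in HFD+WBM mice 1 to 4, against 11.08, 11.34, 11.52 and 11.59 in HFD mice 1 to 4. The groups overlapped, and the difference was 0.21 (-0.20 to 0.62; adjusted p = 0.65 by limma). It was 0.33 without HFD+WBM mouse 1, and 0.11 without HFD mouse 1. Pparg, the fat storage receptor of adipocytes that also increases in fatty livers, had 9.16, 8.70, 8.27 and 9.34 in HFD+WBM mice 1 to 4, against 8.58, 8.63, 9.35 and 9.40 in HFD mice 1 to 4. Its 4 values spread over more than 1 log2 unit in HFD+WBM mice and the groups overlapped, with a difference of -0.12 (-0.77 to 0.52; adjusted p = 0.89 by limma). Ppard, the broadly expressed member of the same subfamily, differed by -0.04 (-0.45 to 0.36).

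Among the bile acid and drug sensors, 5 members, 0 passed the test, and the median difference was 0.01. Nr1h4, the bile acid receptor FXR that shuts off bile acid synthesis, had 10.28, 10.46, 10.36 and 10.63 in HFD+WBM mice 1 to 4, against 10.74, 10.21, 10.42 and 10.32 in HFD mice 1 to 4. Nr1i2, the pregnane X receptor that senses drugs and steroids, had 10.11, 10.59, 10.33 and 10.82 in HFD+WBM mice 1 to 4, against 10.37, 10.38, 10.62 and 10.60 in HFD mice 1 to 4. In both the groups overlapped, with a difference of 0.01 (-0.36 to 0.38; adjusted p = 0.98 by limma) for Nr1h4 and -0.03 (-0.44 to 0.38; adjusted p = 0.96 by limma) for Nr1i2. For these receptors a change of 1.5-fold in either direction lay outside the interval. Nr1i3, the constitutive androstane receptor that induces drug clearance, had 11.27, 11.85, 11.93 and 12.01 in HFD+WBM mice 1 to 4, against 11.84, 11.44, 11.06 and 11.51 in HFD mice 1 to 4. HFD+WBM mice 2 to 4 lay above all HFD mice and mouse 1 lay below all of them but HFD mouse 3, so that the difference of 0.30 (-0.19 to 0.80) had an adjusted p of 0.59 by limma. Without HFD+WBM mouse 1 it was 0.47 with p just under 0.05 before adjustment, and without HFD mouse 3 it was 0.17. Ahr, the receptor for planar aromatic compounds, had 10.41, 10.26, 10.08 and 10.65 in HFD+WBM mice 1 to 4, against 10.38, 9.79, 9.58 and 9.86 in HFD mice 1 to 4. HFD mouse 1 lay among the HFD+WBM mice and the other 3 HFD mice lay below all of them. The difference was 0.45 (-0.01 to 0.91; adjusted p = 0.43 by limma, exact permutation p = 0.0857), and Arnt, the partner with which Ahr binds DNA, differed by -0.17 (-0.55 to 0.20). The p of Ahr came under 0.05 before adjustment without HFD mouse 1 (0.61) or HFD+WBM mouse 3 (0.54). With all mice kept, it did so in 7 of the 12 other settings. Among those 12 are choices between the rows of a gene, which cannot change the values of a member measured by 1 probe set.

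**Figure D2:**
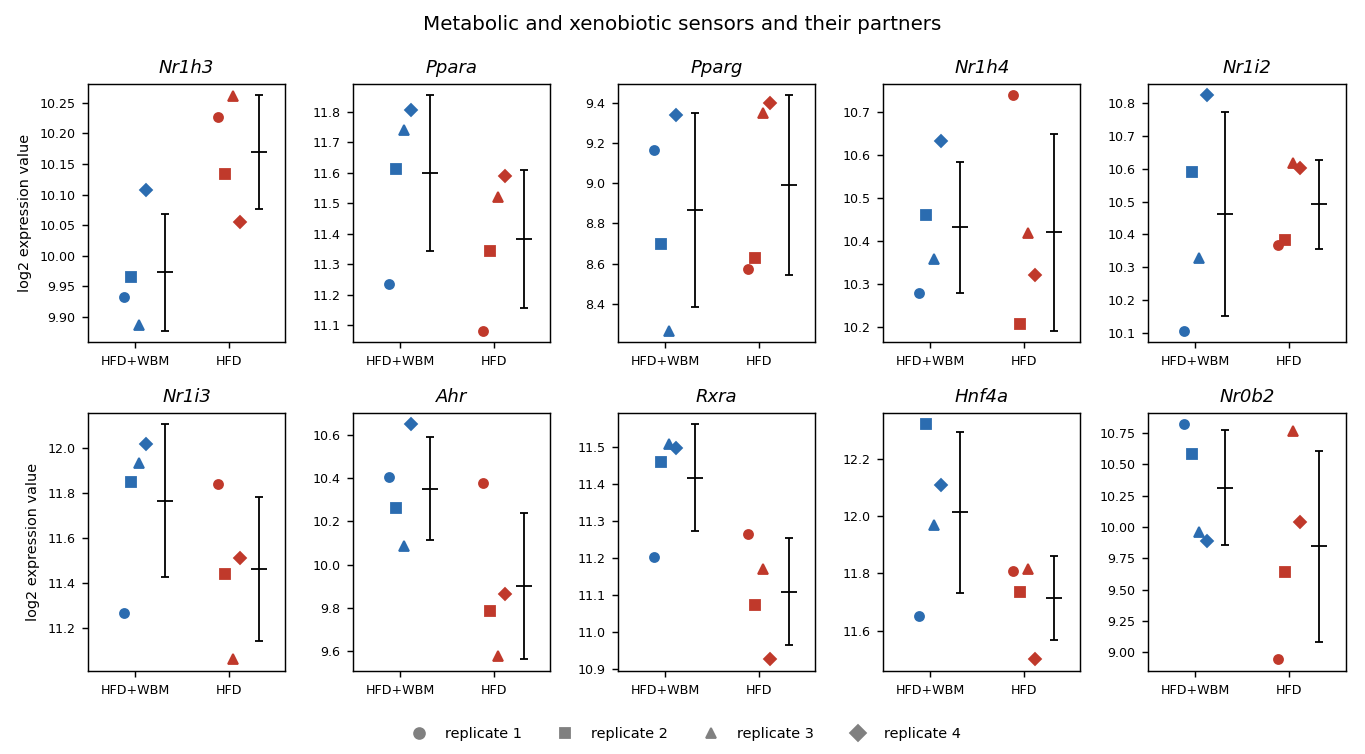
Log2 signal (vertical axis) of Nr1h3, Ppara, Pparg, Nr1h4, Nr1i2, Nr1i3, Ahr, Rxra, Hnf4a and Nr0b2 in each of the 4 HFD+WBM mice and the 4 HFD mice, with a marker shape for each replicate number and the mean with its SD. The groups overlap in each of the 10 receptors, and the spread is widest for Nr0b2 in HFD mice (8.94 to 10.77).

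The retinoid receptors and RXR partners, 6 members, held 2 lower and 0 higher at p under 0.05 before adjustment by limma, both named above, and their median difference was -0.17. Rxrg and Rarb are subtypes of the retinoid X and retinoic acid receptors, and Rarb is itself a gene switched on by retinoic acid. Because they differed, the 250 bases before their RefSeq start (GRCm38.p6) are shown, with matches of the receptor core motifs AGGTCA and AGTTCA on either strand in capitals. The Rxrg window lies at chr1:167618015-167618264, plus strand, and that of Rarb at chr14:16575477-16575726, minus strand.
Rxrg: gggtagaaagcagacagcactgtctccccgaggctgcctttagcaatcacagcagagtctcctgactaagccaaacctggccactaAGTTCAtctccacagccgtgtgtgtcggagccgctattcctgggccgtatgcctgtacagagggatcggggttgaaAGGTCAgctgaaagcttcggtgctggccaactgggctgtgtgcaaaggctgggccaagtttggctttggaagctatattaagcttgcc
Rarb: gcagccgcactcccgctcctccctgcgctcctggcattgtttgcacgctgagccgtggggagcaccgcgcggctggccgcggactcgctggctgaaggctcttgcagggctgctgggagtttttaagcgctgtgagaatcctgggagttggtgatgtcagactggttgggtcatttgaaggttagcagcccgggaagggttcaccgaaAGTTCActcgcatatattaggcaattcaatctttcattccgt
The Rxrg window held 2 matches, 164 to 159 and 88 to 83 bases before the start, and the Rarb window 1, at 42 to 37 bases, all on the strand of the gene. Another Rxrg window, at the other start, held 0 and is not shown, since the window with more matches was chosen. Either motif occurred in 24.2% of all 32851 windows of this length and in 15 of the 49 windows of members (30.6%). These are shares of single windows, not of windows chosen by their matches, and a match is a description of the letters only.

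Rxrg had 7.25, 6.75, 6.65 and 6.94 in HFD+WBM mice 1 to 4, against 7.21, 7.48, 7.17 and 7.77 in HFD mice 1 to 4. The groups overlapped through HFD+WBM mouse 1, which lay within the HFD range, while the other 3 lay below every HFD mouse. The level averaged 6.90 ± 0.26 in HFD+WBM livers and 7.41 ± 0.28 in HFD livers (SD, n = 4 each), 1.43-fold lower, and the difference was -0.51 ± 0.19 (SE; 95% interval -0.95 to -0.08; adjusted p = 0.40 by limma, exact permutation p = 0.0857). The HFD+WBM mean of Rxrg lay below 7.27, the median of the mean log2 signal over all genes, and no detection call was used. Rarb had 7.83, 7.09, 7.12 and 7.54 in HFD+WBM mice 1 to 4, against 7.60, 7.72, 8.15 and 8.26 in HFD mice 1 to 4. Again HFD+WBM mouse 1 overlapped with the HFD mice. The mean was 7.39 ± 0.35 in HFD+WBM livers and 7.93 ± 0.32 in HFD livers (SD, n = 4 each), 1.45-fold lower, with a difference of -0.54 ± 0.23 (SE; -1.04 to -0.03; adjusted p = 0.41 by limma, exact permutation p = 0.114). The estimates stayed below 0 whichever mouse was left out. The p of Rxrg was no longer under 0.05 without HFD+WBM mouse 2 or 3 or HFD mouse 2 or 4, and that of Rarb without HFD+WBM mouse 2 or 3 or HFD mouse 3 or 4. That of Rarb was also over 0.05 with array weights and with an equal-variance test of each gene alone. Of the 10 markers of stellate cells and matrix, 4 were lower, against 6.9% of all genes, and 0 higher, while 2 had an estimate above 0. Their summed log2 signal was 12.28 to 12.73 in HFD+WBM livers, against 12.52 to 13.11 in HFD livers. Markers of Kupffer cells and macrophages (12 of 15) and of sinusoidal endothelium (3 of 10) were lower as well. The part of any of these markers in the Rxrg and Rarb differences was not tested.

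Rxra, the main retinoid X receptor of liver, had 11.20, 11.46, 11.51 and 11.50 in HFD+WBM mice 1 to 4, against 11.27, 11.07, 11.17 and 10.93 in HFD mice 1 to 4. HFD+WBM mice 2 to 4 lay above all HFD mice and mouse 1 lay below HFD mouse 1, with a difference of 0.31 (-0.02 to 0.64; adjusted p = 0.44 by limma, exact permutation p = 0.0571). Rxrb, its widely expressed relative, had 8.81, 8.56, 8.95 and 8.38 in HFD+WBM mice 1 to 4, against 8.36, 8.12, 8.47 and 8.24 in HFD mice 1 to 4 and was chosen after its values were seen. HFD+WBM mice 1 to 3 lay above every HFD mouse, and the difference was 0.38 (-0.005 to 0.76; adjusted p = 0.43 by limma, exact permutation p = 0.0571). The p came under 0.05 before adjustment for Rxra without HFD+WBM mouse 1 (0.38), and for Rxrb without HFD+WBM mouse 4 (0.48) or HFD mouse 3 (0.43). With all mice kept, it did so in 6 of the 12 other settings for Rxra and 7 of 12 for Rxrb. The estimates of Rxra and Rxrb therefore had the opposite sign to that of Rxrg. The retinoic acid receptors Rara and Rarg differed by -0.24 (-0.63 to 0.15) and -0.10 (-0.64 to 0.45).

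Of the hormone and vitamin D receptors, 6 members, 1 was higher, and the median difference was 0.01. Vdr, the vitamin D receptor, is expressed in liver mainly by cells other than hepatocytes. Its window of 250 bases before the start (RefSeq, GRCm38.p6, chr15:97908297-97908546, minus strand) is shown because Vdr was the member that kept its p in the most settings; capitals mark the 1 match of AGGTCA or AGTTCA, on the reverse strand, 91 to 86 bases before the start.
Vdr: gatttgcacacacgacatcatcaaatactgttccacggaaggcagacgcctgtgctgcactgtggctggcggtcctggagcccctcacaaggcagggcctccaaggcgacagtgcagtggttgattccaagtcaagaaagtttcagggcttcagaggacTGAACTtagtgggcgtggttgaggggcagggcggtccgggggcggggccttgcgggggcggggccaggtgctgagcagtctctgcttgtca
Vdr had 7.32, 6.47, 6.55 and 6.90 in HFD+WBM mice 1 to 4, against 6.17, 6.08, 6.32 and 6.20 in HFD mice 1 to 4, so that every HFD+WBM mouse lay above every HFD mouse. It averaged 6.81 ± 0.39 in HFD+WBM livers and 6.19 ± 0.10 in HFD livers (SD, n = 4 each), 1.53-fold higher. The difference was 0.62 ± 0.20 (SE; 0.17 to 1.07; adjusted p = 0.37 by limma), and the exact permutation p of 0.0286 is the smallest that 4 mice against 4 can give. The spread was wider in HFD+WBM mice, and mouse 1 was the highest at 7.32. Its p stayed under 0.05 in the 8 fits that left out a mouse, with a difference of 0.45 to 0.73. Both group means lay below 7.27, the median of the mean log2 signal over all genes, as they did for 6 members, and no detection call was used to say whether such signals lie above background. Markers of Kupffer cells and macrophages, in which Vdr is also expressed, were lower in the same livers. Of 15, 12 were lower, against 6.9% of all genes, and 0 higher. Their summed log2 signal was 12.84 to 13.31 in HFD+WBM livers, against 13.36 to 13.90 in HFD livers. The part of these markers in the Vdr values was not tested.

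The other hormone receptors did not pass the test. The thyroid hormone receptors Thra and Thrb differed by 0.03 (-0.37 to 0.44) and -0.11 (-0.47 to 0.24). Nr3c1, the glucocorticoid receptor that raises glucose production under stress and fasting, differed by -0.01 (-0.35 to 0.33), and Nr3c2, the mineralocorticoid receptor, by 0.13 (-0.26 to 0.52). Pgr, the progesterone receptor, had low signals, 4.13 to 5.86 in HFD+WBM livers and 4.71 to 5.76 in HFD livers, with a difference of -0.20 (-0.999 to 0.60).

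**Figure D3:**
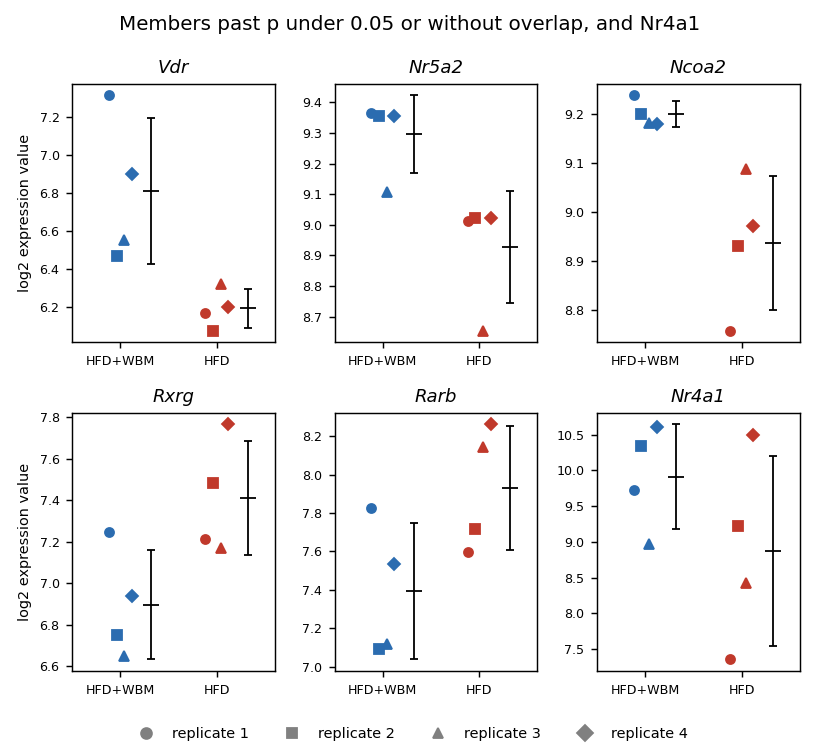
Log2 signal (vertical axis) of Vdr, Nr5a2, Ncoa2, Rxrg, Rarb and Nr4a1 in each of the 4 HFD+WBM mice and the 4 HFD mice, with a marker shape for each replicate number and the mean with its SD. The groups are apart in Vdr, Nr5a2 and Ncoa2, overlap through 1 HFD+WBM mouse in Rxrg and Rarb, and overlap widely in Nr4a1.

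Orphan receptors have no known or no regulated ligand. Of the 14, 1 was higher and 0 lower at p under 0.05 before adjustment by limma, 12 had an estimate above 0, and the median difference was 0.28. Nr5a2, the liver receptor homolog LRH-1 that turns on bile acid synthesis genes in hepatocytes, was the member that differed. Its window of 250 bases (RefSeq, GRCm38.p6, chr1:136960449-136960698, minus strand) is shown for that reason. The 1 match of AGGTCA or AGTTCA is in capitals, 64 to 59 bases before the start. The window of its other start held 0, and the window with more matches was chosen to be shown.
Nr5a2: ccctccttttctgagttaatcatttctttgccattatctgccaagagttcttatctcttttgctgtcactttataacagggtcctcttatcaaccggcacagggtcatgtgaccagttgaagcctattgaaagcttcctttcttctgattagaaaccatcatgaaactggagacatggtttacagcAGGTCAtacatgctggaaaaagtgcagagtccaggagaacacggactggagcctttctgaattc
Nr5a2 had 9.37, 9.36, 9.11 and 9.36 in HFD+WBM mice 1 to 4, against 9.01, 9.02, 8.65 and 9.02 in HFD mice 1 to 4. In each group mouse 3 was the lowest and the other 3 mice lay close together, and every HFD+WBM mouse lay above every HFD mouse. The mean was 9.30 ± 0.13 in HFD+WBM livers and 8.93 ± 0.18 in HFD livers (SD, n = 4 each), 1.29-fold higher, with a difference of 0.37 ± 0.15 (SE; 0.03 to 0.71; adjusted p = 0.40 by limma, exact permutation p = 0.0286). Its p was no longer under 0.05 without HFD+WBM mouse 1, 2 or 4 or HFD mouse 3; over the 8 fits that left out a mouse the difference was 0.28 to 0.43.

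Hnf4a, the factor that keeps hepatocyte genes on, had 11.65, 12.32, 11.97 and 12.11 in HFD+WBM mice 1 to 4, against 11.81, 11.73, 11.81 and 11.50 in HFD mice 1 to 4, with a difference of 0.30 (-0.10 to 0.69; adjusted p = 0.51 by limma). HFD+WBM mice 2 to 4 lay above all HFD mice. Without HFD+WBM mouse 1 the difference was 0.42 with p under 0.05 before adjustment, and without HFD+WBM mouse 2 it was 0.20. Nr0b2, the small heterodimer partner that FXR induces and that represses LRH-1 and HNF4 alpha, had 10.82, 10.58, 9.96 and 9.89 in HFD+WBM mice 1 to 4, against 8.94, 9.64, 10.77 and 10.04 in HFD mice 1 to 4. The widest range lay in the HFD mice, and the difference was 0.46 (-0.37 to 1.30; adjusted p = 0.62 by limma). Without HFD mouse 3 it was 0.77 with p under 0.05 before adjustment. It was 0.16 without HFD mouse 1, and 0.30 without HFD+WBM mouse 1. Hnf4g, a relative of Hnf4a expressed in gut and kidney, had 3.99, 4.12, 4.95 and 5.20 in HFD+WBM mice 1 to 4, against 5.66, 5.13, 1.33 and 4.86 in HFD mice 1 to 4; HFD mouse 3 was far below the rest, and the difference of 0.32 carried the widest interval of the set (-1.53 to 2.18).

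Nr4a1 to Nr4a3 are immediate early receptors that respond within minutes to hours to stress, fasting and hormones. The Nr4a1 promoter is shown because the gene had the largest estimate and because its family shares a feature that the list did not use. In the 250 bases before its start (RefSeq, GRCm38.p6, chr15:101266596-101266845, plus strand) the motif TGACG, the core of the cyclic AMP response element, matched 4 times, all on the reverse strand and in capitals, at 233 to 229, 213 to 209, 69 to 65 and 40 to 36 bases before the start.
Nr4a1: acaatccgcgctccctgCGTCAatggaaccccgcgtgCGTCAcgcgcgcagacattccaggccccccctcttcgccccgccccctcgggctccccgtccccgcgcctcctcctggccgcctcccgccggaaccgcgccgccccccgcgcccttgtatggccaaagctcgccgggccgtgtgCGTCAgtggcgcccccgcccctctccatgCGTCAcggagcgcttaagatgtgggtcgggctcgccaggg
TGACG occurred in 17.8% of all windows and in 11 of the 49 windows of members (22.4%), and 4 or more matches stood in 45 of 32851 windows (0.137%), among them those of Nr4a1, Nr4a2 and Nr4a3. Nr4a1 had 9.73, 10.35, 8.97 and 10.61 in HFD+WBM mice 1 to 4, against 7.36, 9.22, 8.42 and 10.50 in HFD mice 1 to 4 and was chosen after its values were seen. It averaged 9.91 ± 0.73 in HFD+WBM livers and 8.87 ± 1.33 in HFD livers (SD, n = 4 each), 2.06-fold higher, but the groups overlapped, since the HFD mice ran up to the level of the HFD+WBM mice, and the difference was 1.04 ± 0.61 (SE; -0.34 to 2.41; adjusted p = 0.51 by limma, exact permutation p = 0.257). Without HFD mouse 4 the difference was 1.58 with p under 0.05, and without HFD mouse 1 it was 0.53. Nr4a2 and Nr4a3 differed by 0.28 (-0.41 to 0.96) and 0.29 (-0.44 to 1.03).

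The remaining orphan receptors had differences of -0.18 to 0.29. Nr2f2, COUP-TFII, had 10.08, 9.98, 10.06 and 9.93 in HFD+WBM mice 1 to 4, against 9.94, 9.68, 9.69 and 9.70 in HFD mice 1 to 4 and was chosen after its values were seen. Its difference was 0.26 (-0.04 to 0.56; adjusted p = 0.47 by limma, exact permutation p = 0.0571), with HFD mouse 1 overlapping the HFD+WBM mice; without that mouse it was 0.32 with p under 0.05 before adjustment. Nr2f1, its close relative, differed by 0.29 (-0.23 to 0.80), Rora, which acts with the circadian clock, by 0.15 (-0.22 to 0.51) and Nr2c2, TR4, by 0.19 (-0.18 to 0.55). For Nr2c1, TR2, the difference was 0.01 (-0.51 to 0.53), for Nr2f6 -0.13 (-0.50 to 0.24) and for Nr6a1, the germ cell nuclear factor, -0.18 (-0.77 to 0.41).

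The coregulators, 5 measured members of 6, held 0 with p under 0.05 and had a median difference of -0.05. Ncoa2, a coactivator of the p160 family that many receptors recruit, had 9.24, 9.20, 9.18 and 9.18 in HFD+WBM mice 1 to 4, against 8.76, 8.93, 9.09 and 8.97 in HFD mice 1 to 4. The groups did not overlap, and the HFD+WBM mice lay within a narrow range. The difference was 0.26 (-0.04 to 0.56; adjusted p = 0.47 by limma, exact permutation p = 0.0286), so that the limma p missed the threshold although the order of the mice was complete. Its family members Ncoa1 and Ncoa3 differed by -0.06 (-0.46 to 0.33) and -0.09 (-0.51 to 0.33). Ppargc1b, PGC-1 beta, which coactivates fat synthesis and mitochondrial genes, differed by 0.25 (-0.25 to 0.74), and Nrip1, the corepressor RIP140, by -0.05 (-0.51 to 0.40).

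**Figure D4:**
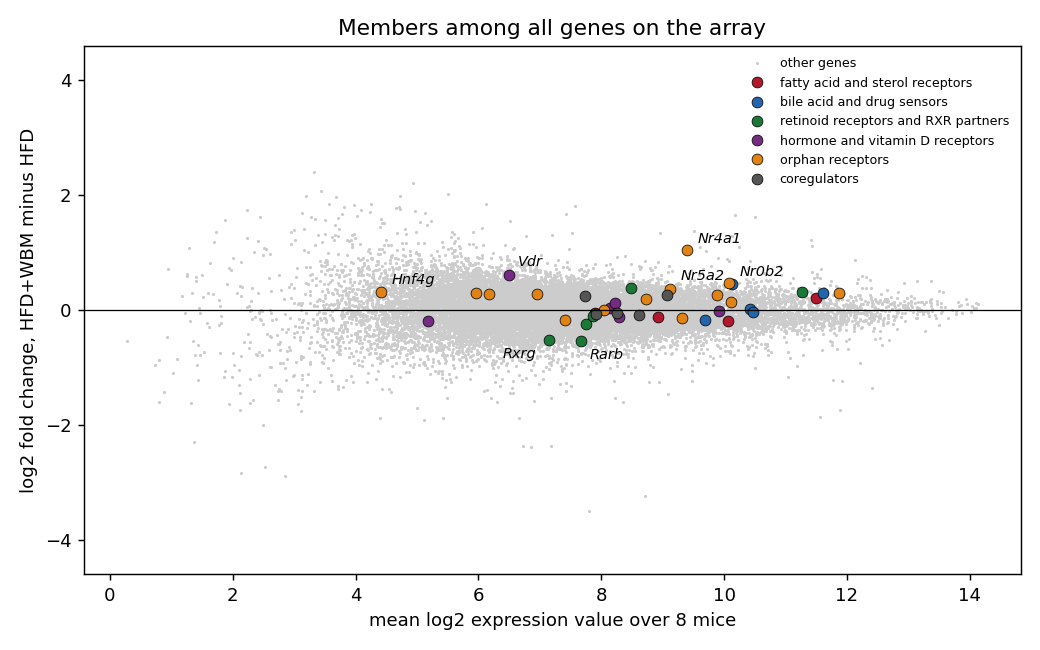
Difference in log2 signal (HFD+WBM minus HFD, vertical axis) against mean log2 signal over the 8 arrays (horizontal axis) for all 19938 genes in grey, with the members coloured by role. The differences of the members run from -0.54 for Rarb to 1.04 for Nr4a1.

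How many members passed depended on how the variance was modelled. With the prior variance fitted as a trend over signal, 10 of 40 members had p under 0.05 before adjustment (25%), against 13.6% of all genes. Of these, 2 were lower, against 8.24%, and 8 were higher, against 5.36%. The lower ones were Rxrg and Rarb, and the higher ones Ahr, Rxra, Rxrb, Vdr, Nr5a2, Hnf4a, Nr2f2 and Nr4a1. In that fit 139 genes had an adjusted p under 0.05 by limma, and 0 of them were members.

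The genes that these receptors are known to regulate were also read, from lists written with earlier results of these data known. Over all genes, 6.9% were lower and 4.85% higher at p under 0.05 before adjustment by limma, the background for each list. Of all estimates, 50.7% were above 0. In the LXR list, 5 of 13 measured genes were lower and 0 higher, with a median difference of -0.39; among them were Lpl, which releases fatty acids from lipoproteins (-0.78, interval -1.34 to -0.23), Fasn, the fatty acid synthase (-1.35, interval -2.36 to -0.33), Cd5l, a secreted macrophage protein that is also on the macrophage marker list (-0.63, interval -1.15 to -0.12), and Abcg1, a cholesterol exporter (-0.52, interval -0.96 to -0.08). Of the LXR list, 9 estimates were below 0 and 4 above, the highest that of Abcg8 (0.37, interval -0.01 to 0.76). Fasn was 13.17, 11.21, 11.49 and 11.08 in HFD+WBM mice 1 to 4, against 12.37, 13.57, 13.27 and 13.14 in HFD mice 1 to 4. HFD+WBM mouse 1 lay within the HFD range of Fasn. In the CAR and PXR list, 6 of 14 were higher and 0 lower, with a median of 0.33 and all 14 estimates above 0. The 4 with the smallest p were Gadd45b, a stress-induced regulator of growth arrest (1.68, interval 0.84 to 2.51), Cyp2b10, a drug-metabolizing cytochrome induced by CAR (1.34, interval 0.50 to 2.18), Ces2a, a carboxylesterase (0.49, interval 0.15 to 0.83), and Abcc3, an exporter of conjugates (0.57, interval 0.16 to 0.98). Cyp2b10 was 9.24, 8.05, 7.16 and 8.29 in HFD+WBM mice 1 to 4, against 6.73, 6.90, 7.18 and 6.60 in HFD mice 1 to 4, and HFD+WBM mouse 3 overlapped with HFD mouse 3.

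In the FXR list, 2 of 11 were lower and 0 higher with a median of -0.14. These were Slc51b, a subunit of the basolateral bile acid exporter (-1.44, interval -2.34 to -0.54), and Abcb11, the bile salt export pump (-0.40, interval -0.70 to -0.10), in neither of which the groups overlapped. The groups also did not overlap for Abcc2, which was higher in HFD+WBM livers (0.29, interval -0.02 to 0.59) and did not pass the test. In the AhR list, 1 of 7 was lower and 1 higher, with a median of 0.12. They were Cyp1a1 (-0.71, interval -1.26 to -0.17) and Cyp1a2 (0.53, interval 0.13 to 0.93), both cytochromes that oxidize aromatic compounds, of opposite sign. Cyp1a1 had low signals, 4.26 to 5.48 in HFD+WBM livers and 5.34 to 5.77 in HFD livers. Both of its group means lay below 7.27, the median over all genes, and no detection call was used. In the PPAR gamma list, 2 of 8 were lower and 1 higher, with a median of -0.64: Fabp4, the fatty acid carrier of adipocytes and macrophages (-0.92, interval -1.35 to -0.49), and Lpl were lower and Cidea, a lipid droplet protein (0.73, interval 0.20 to 1.27), was higher. Both group means of Fabp4 and of Cidea also lay below 7.27. In the PPAR alpha list 0 of 15 passed, with a median of 0.14.

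In the glucocorticoid receptor list, 1 of 12 was lower, Lcn2, an acute phase protein (-1.46, interval -2.08 to -0.83), and 2 were higher, Mt2, a metallothionein (1.61, interval 0.37 to 2.86), and Per1, a clock gene (0.66, interval 0.02 to 1.29). In the thyroid hormone receptor list, 1 of 7 was lower, Thrsp, a lipogenic protein (-1.24, interval -2.04 to -0.43). In the retinoic acid receptor list, 2 of 5 were lower, Tgm2, a transglutaminase (-0.51, interval -0.96 to -0.05), and Lrat, which stores retinol as an ester and is also a stellate cell marker (-0.56, interval -1.08 to -0.03). In the HNF4 alpha list 0 of 9 passed. Of the immediate early genes, whose list goes with the Nr4a receptors, 2 of 10 were higher, Jun (1.10, interval 0.26 to 1.93) and Junb (0.66, interval 0.17 to 1.15), with a median of 0.65. Other nuclear receptor genes had 0 of 8 that passed, and other coregulators 1 of 25, Ncoa7, lower (-0.48, interval -0.93 to -0.04). Both group means of Ncoa7 lay below 7.27, the median over all genes. No adjusted p in these lists was under 0.05 by limma.

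**Figure D5:**
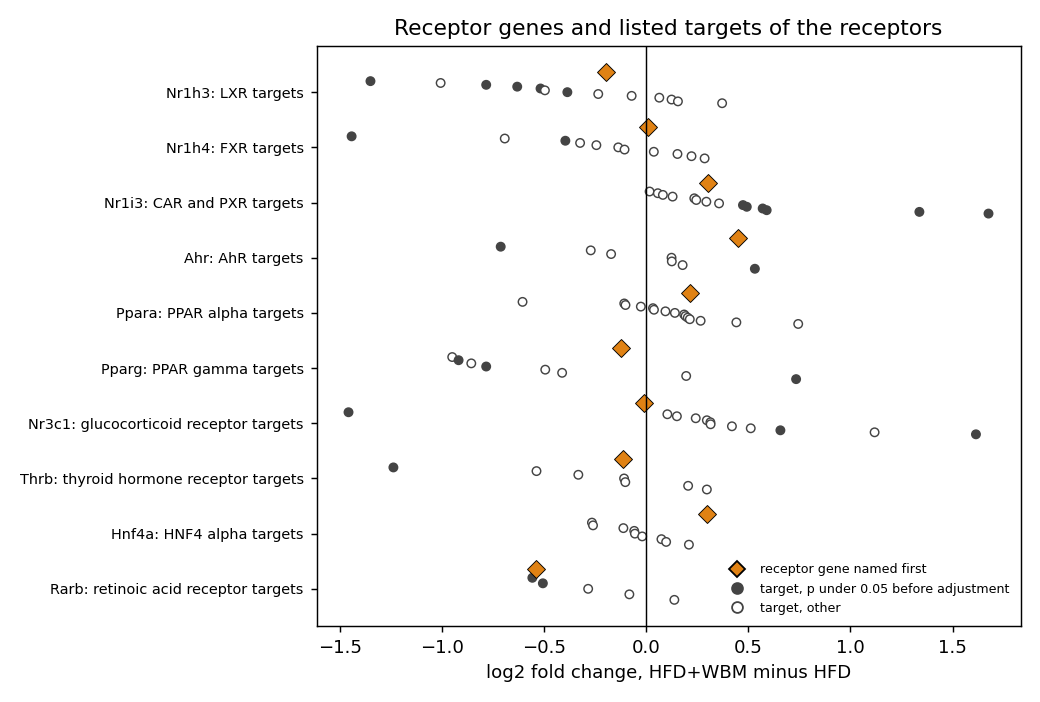
Difference in log2 signal (HFD+WBM minus HFD, horizontal axis) of each receptor gene (orange diamond) and of the genes on the list of its known targets (circles), 1 row per receptor; filled circles have p under 0.05 before adjustment by limma. Nr1h3 lies at -0.20 above an LXR list with a median of -0.39, and Nr1i3 at 0.30 above a CAR and PXR list with a median of 0.33. In other rows, Hnf4a lies at 0.30 above a list with a median of -0.06, and Nr3c1 at -0.01 above one with a median of 0.31. The pregnane X receptor gene Nr1i2 (-0.03) is not plotted.

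The hepatocyte markers, 8 measured of 10, had 0 that passed and a summed log2 signal of 16.68 to 16.76 in HFD+WBM livers, against 16.62 to 16.73 in HFD livers, and none of them was near 0. Over all genes, 6.9% were lower and 4.85% higher at p under 0.05 before adjustment by limma. Sinusoidal endothelial markers were lower in 3 of 10 and higher in 0. Their summed signals were 12.38 to 12.95 in HFD+WBM livers, against 12.64 to 13.23 in HFD livers. Cholangiocyte markers (5 measured of 7) and lymphocyte markers (7 of 8) had 0 that passed. Clock genes had 2 of 11 lower and 4 higher, with summed signals of 12.99 to 13.31 in HFD+WBM livers and 12.73 to 13.00 in HFD livers, and their part in the receptor values was not tested.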

How the data were processed

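Liver RNA of 8 female OVX mice, 4 fed with HFD+WBM and 4 with HFD, was hybridized, 1 mouse per array, to Affymetrix Mouse Gene 1.0 ST chips, and samples were grouped by GEO's labels. The authors corrected, normalized and summarized the probe intensities with the IterPLIER method (Affymetrix Power Tools 1.8.6) and deposited log2 values. The genome build and any offset added before the log were not given in the sources used here, so low values carry no background limit. Of 28944 rows, 21789 name exactly 1 gene, 1621 several and 5534 none; 21698 names were matched through the gene number and 91 kept as given. The row with the highest mean represented each gene, which left 19938.

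The fit over all genes used limma 3.58.1 (lmFit, then eBayes; R 4.3.3), diet as the only term, with Benjamini-Hochberg adjustment over all genes. Single values were also compared by an exact two-sided permutation test over the 70 divisions of the 8 mice (smallest p 0.029). The test was checked on simulated data. The small number of arrays limits the precision. The mice are separate specimens per the labels. Replicate numbers were not used as pairs in the fit, and the labels do not say how they were given.

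The rule for the members uses no measured value, but members and lists were chosen with earlier results of these data known. Members with p under 0.05 before adjustment, members whose groups do not overlap, and Nr1h3, Ppara, Pparg, Nr1h4, Nr1i2, Nr1i3, Hnf4a, Nr0b2, Rxra and Ahr were named with each mouse's value; in each list at most 4 genes with p under 0.05 were named, by smallest p. Nr4a1, Rxrb and Nr2f2, and Abcg8 and Abcc2 of the lists, were added after their values were seen. Promoter windows are RefSeq's, of which 33 of 40 measured members have one. Ahr, Hnf4g, Ncoa2, Ncoa3, Nr3c1, Ppargc1b and Thra were not matched. Where a gene had 2 windows, the one with more matches was shown. Alternatives were array centring, adding 16 or 64 to the linear value, quantile normalization and the brighter genes alone. Others were the mean or the dimmest of a gene's rows, all rows, a prior variance following the signal, array weights and an equal-variance test. The rest were a 1.5-fold threshold, the replicate number as a block and leaving out each mouse. The settings on rows left every member's values as they were, since each had 1 probe set.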

Additional observations from a re-analysis of the deposited data

Results flagged for a closer look

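In 7 of the 80 groups of 4 mice that the 40 members give, 1 mouse lay far from the other 3 by Dixon's test, where chance gives about 5% of groups. Rxra was 11.20 in HFD+WBM replicate 1, against 11.46 to 11.51 in HFD+WBM replicates 2 to 4. Nr5a2 was 9.11 in HFD+WBM replicate 3, against 9.36 to 9.37 in the others, and 8.65 in HFD replicate 3, against 9.01 to 9.02. Rora was 10.48 in HFD+WBM replicate 2, against 10.07 to 10.10, and Ncoa3 was 8.21 in HFD+WBM replicate 3, against 8.67 to 8.74. Nr2f2 was 9.94 in HFD replicate 1, against 9.68 to 9.70, and Nr4a3 was 6.47 in HFD replicate 4, against 5.50 to 5.65.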

How the results depend on the processing

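The count of members at an adjusted p under 0.05 was 0 in all 20 alternatives, while the count of all genes was 139 with a prior variance fitted to the signal, 80 and 2 with offsets of 64 and 16, 19 with the brighter genes alone, 1 without HFD+WBM replicate 2 and 0 in the others. Members lower at p under 0.05 numbered 2 in the fit reported and 1 with the brighter genes alone, whose 33 members do not include Rxrg. They numbered 1 with array weights or with the replicate block, and 0 to 2 when a mouse was left out (0 without HFD+WBM replicate 2 or 3 or HFD replicate 4). Members higher numbered 2 in the fit reported, 7 with quantile normalization, 4 and 6 with offsets of 16 and 64, and 4 with the brighter genes alone. They numbered 8 with a prior variance fitted to the signal, 5 with array weights and 6 with an equal-variance t-test of each gene alone. When a mouse was left out they numbered 1 to 4 (1 without HFD+WBM replicate 2, 4 without HFD+WBM replicate 1 or HFD replicate 1). With the equal-variance t-test the 2 lower members were Nr1h3 and Rxrg, in place of Rarb and Rxrg. In both directions together 9 of 40 members passed with quantile normalization, against 12.4% of all genes. With offsets of 16 and 64, 6 and 8 passed, against 12.2% and 14%, and with the brighter genes alone 5 of 33, against 19.3%. With array weights 6 passed, against 13.6%, and with the equal-variance t-test 8, against 13%. When a mouse was left out 1 to 6 passed, against 8.61% to 11.7%. Past the study's thresholds, 0 members became 1 with that prior variance, with the replicate block and with a 1.5-fold threshold, and 0 to 1 when a mouse was left out (1 without HFD replicate 4, Nr4a1). The labels do not say how the replicate numbers were given. Over all genes, deviations of mice with the same number correlated at -0.04, -0.05, -0.12 and -0.02, which does not test a pairing in single genes. With the replicate block 4 members passed, Ahr, Rxrg, Vdr and Nr4a1, against 8.81% of all genes. Of the 4 members, 2 were shared with the fit reported, and Rarb and Nr5a2 no longer passed. Vdr passed in the 19 alternatives that held it. Those that took the mean of a gene's rows, its dimmest row or all rows could not change its values, since each member had 1 probe set. Nr1i2 became 0.027 under quantile normalization, and when a mouse was left out Nr1i2 was -0.151 to 0.0881, Pparg -0.278 to 0.0784 and Nr1h4 -0.0599 to 0.118. The cause of these changes was not tested. With 4 mice a group, changes of under about 0.41 in log2 signal lie within the median interval of a member.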
